A study of Mus musculus with 6 samples.

Results

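The regions described here were bound by estrogen receptor alpha (ERα) in the wild-type mouse uterus after tamoxifen and were called with none of the other ligand treatments of the study. The 6 deposited ERα peak lists were merged wherever peaks overlapped by 1 bp or more, which gave 65146 regions. Of these, 6298 held a wild-type tamoxifen peak and no peak of wild-type ICI, mutant ICI or mutant tamoxifen, with vehicle peaks allowed. They made up 9.67% of all merged regions. The regions were selected on the peak calls of the 4 ligand lists, so their presence in WT Tam and absence from the other 3 is a description and was not tested. They are called solitary here, meaning held by no other ligand list.

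ERα was mapped by chromatin immunoprecipitation and sequencing (ChIP-seq) in whole uteri of ovariectomized C57BL/6J females aged 12 weeks. The groups were wild-type littermates given tamoxifen (WT Tam), wild-type littermates given ICI (WT ICI), ERα AF-2 mutants given ICI (Af2KI ICI), ERα AF-2 mutants given tamoxifen (Af2KI Tam), wild types given vehicle (WT Veh) and mutants given vehicle (Af2KI Veh). ICI is fulvestrant, also known as ICI182780. Both ligands were injected intraperitoneally at 2 mg/kg in DMSO, vehicle was 50 µl of DMSO, and uteri were taken after 1 h. Each group was 1 library from the pooled uteri of 6 mice. The code E1h in the sample titles is left unexplained by the labels. Genotype and tissue were taken from the labels, since lists of positions offer no check of either.

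ERα is a ligand-activated transcription factor that drives growth and secretion in the uterus. It recruits coactivators through activation function 1 in its amino-terminal part and through AF-2 in its ligand-binding domain. AF-2 is a groove that helix 12 completes when an agonist is bound. Tamoxifen, a selective ER modulator, places helix 12 in that groove, so that AF-2 is blocked while activation function 1 can still work, and it acts as a partial agonist in the uterus. Fulvestrant is a steroidal antagonist with a long side chain that also promotes loss of the receptor.

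The peak lists held 37327 peaks for WT Tam, 26482 for WT ICI, 45837 for Af2KI ICI, 36538 for Af2KI Tam, 3712 for WT Veh and 5027 for Af2KI Veh. Every peak was 200 bp wide and carried no height or score, and read depth is unknown. A peak absent from a list is not proof of an unbound site, because signal below the authors' threshold is not listed. In whole uterus, strong binding in few cells and weak binding in many cannot be told apart. With 1 library per group there is no replicate spread and no test between groups was made. Ranges in parentheses after a share are its 95% binomial interval by the exact Clopper-Pearson method, and they cover counting error alone.

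All 6298 regions held exactly 1 WT Tam peak, and 6153 were therefore 200 bp wide. The other 145 also held a vehicle peak and reached up to 367 bp. The regions took up 16.9% of the 37324 WT Tam regions (95% interval 16.5 to 17.3). By comparison, WT ICI had 4228 regions to itself, 15.97% of its own regions (15.5 to 16.4). Af2KI ICI had 8430, or 18.4% (18.04 to 18.8), and Af2KI Tam had 3569, or 9.77% (9.47 to 10.1). Tamoxifen thus had a smaller share of regions to itself in the mutant than in the wild type. The tamoxifen lists were of nearly equal length, but the ICI list of the same genotype was longer in the mutant. It held 45837 peaks there against 26482 in the wild type, and the part of this difference was not tested. The wild-type share lay between those of the ICI lists.

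**Figure D1:**
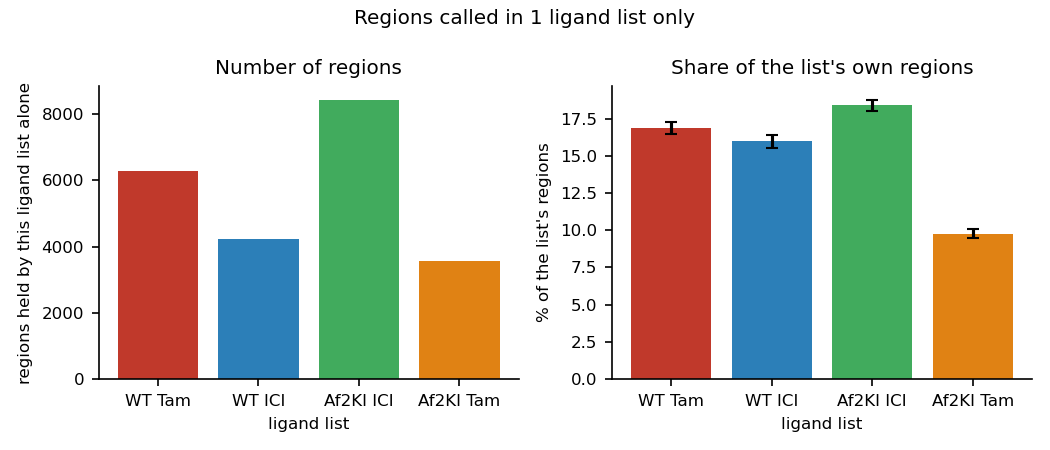
Regions called in a single ligand list, as a number (left) and as a percentage of that list's own regions (right); bars are 1 library each and error bars are exact 95% binomial intervals. WT Tam stands at 6298 regions and 16.9%, and Af2KI Tam is lowest in both panels at 3569 regions and 9.77%.

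Among WT Tam regions, the solitary ones formed the third most frequent combination of ligand lists. Regions shared with all 3 other ligand lists numbered 15144, or 40.6% of WT Tam regions (40.1 to 41.1), and those shared with both mutant lists but missing from WT ICI numbered 7644, or 20.5% (20.1 to 20.9). Regions shared with Af2KI ICI only numbered 3495, those shared with WT ICI only 1976, and those shared with Af2KI Tam only 725. WT Tam thus shared fewest single-partner regions with the library that had the same ligand, Af2KI Tam. The lists differ in length, so these counts do not rank the libraries by likeness.

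Few regions lay close to the overlap threshold. Another ligand peak lay within 20 bp, without overlap, at 24 of the 6298 regions, and within 100 bp at 125. The closest, on chromosome 7 at 120636074 to 120636273 (all coordinates are mm9, counted from 1), touched an Af2KI Tam peak at 0 bp. Next came 2 regions on chromosome 1, at 163343422 to 163343621 and at 164169503 to 164169702, each 1 bp from another ligand peak. That on chromosome 13 at 30050722 to 30050921 was 3 bp from a WT ICI peak, and that on chromosome 4 at 94823609 to 94823808 was 4 bp from an Af2KI Tam peak. Just outside the rule, 34 WT Tam peaks had a largest overlap of 1 to 20 bp with another ligand peak and 280 had one of 1 to 100 bp. A further 8 WT Tam peaks overlapped no other ligand peak directly but were joined to one through another peak.

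Vehicle peaks, which entered the rule only through merging, were rare in these regions. A WT Veh peak was present in 83 of the 6298 regions, or 1.32% (1.05 to 1.63), against 5.21% of all regions with a ligand peak and 5.70% of all merged regions. An Af2KI Veh peak was present in 80, or 1.27% (1.01 to 1.58), against 5.87% of all regions with a ligand peak and 7.72% of all merged regions. All merged regions include those that hold vehicle peaks only. Counted together, 145 regions, or 2.30% (1.95 to 2.70), held a peak of either vehicle list, against 9.51% of regions with a ligand peak and 11.7% of all merged regions, and 18 held both. WT Veh alone was present in 65 and Af2KI Veh alone in 62, so the genotypes contributed nearly equal numbers although the Af2KI Veh list is the longer one. The wild-type tamoxifen regions took up 2.236% of the WT Veh list (1.78 to 2.76) and 1.59% of the Af2KI Veh list (1.26 to 1.98).

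Within the WT Tam list, vehicle peaks became more frequent with the number of other ligand lists in the region. A WT Veh peak was present in 1.32% of regions with no other ligand list, 2.89% with 1 (2.49 to 3.34), 5.52% with 2 (5.08 to 6.00) and 14.2% with all 3 (13.6 to 14.8). The shares for Af2KI Veh were 1.27%, 2.58% (2.20 to 3.01), 7.26% (6.75 to 7.79) and 8.60% (8.16 to 9.06). Regions shared with WT ICI only held a WT Veh peak at 5.41% (4.46 to 6.51), whereas regions shared with Af2KI ICI only did so at 1.09% (0.771 to 1.49), no higher than the solitary ones. Regions shared with Af2KI Tam only held an Af2KI Veh peak at 10.9% (8.72 to 13.4). Peak strength could move with both counts and is not in the lists, so its part in this order was not tested.

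Regions held by a single ligand list differed in their vehicle peaks, and the wild-type tamoxifen regions had the lowest share of Af2KI Veh peaks. That share was 1.27% for WT Tam, 1.96% for WT ICI (1.57 to 2.43), 3.06% for Af2KI ICI (2.70 to 3.45) and 6.70% for Af2KI Tam (5.90 to 7.57). The WT Tam interval overlaps only that of WT ICI, and by a narrow margin. For WT Veh peaks the shares were 1.32% for WT Tam, 1.49% for WT ICI (1.15 to 1.90), 0.629% for Af2KI ICI (0.471 to 0.822) and 1.82% for Af2KI Tam (1.41 to 2.32). Here WT Tam lay within the range of the others. In both sets of solitary mutant regions Af2KI Veh peaks outnumbered WT Veh peaks, 258 to 53 for ICI and 239 to 65 for tamoxifen. They also did so, by less, in the solitary WT ICI regions, 83 to 63. The wild-type tamoxifen regions held 80 Af2KI Veh and 83 WT Veh peaks. The Af2KI Veh list is the longer of the vehicle lists, with 5027 peaks against 3712.

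**Figure D2:**
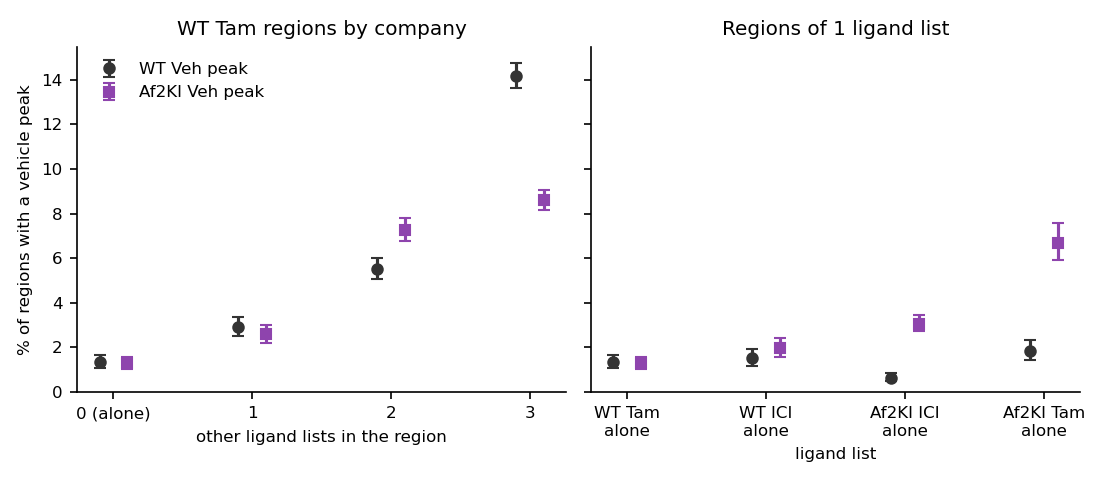
Percentage of regions with a WT Veh peak (circles) or an Af2KI Veh peak (squares), for WT Tam regions by the number of other ligand lists they share (left) and for regions of a single ligand list (right); error bars are exact 95% binomial intervals. WT Tam alone stands at 1.32% and 1.27%, the lowest point of both series on the left.

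Where a vehicle peak was present, its midpoint mostly lay within 50 bp of that of the tamoxifen peak. Closeness is partly set by the merging, which counts a vehicle peak only where it overlaps. The largest offsets were 162 bp for WT Veh and 167 bp for Af2KI Veh. The midpoints were a median of 23 bp apart for the 83 WT Veh peaks, 69 of which lay within 50 bp, and 23.5 bp apart for the 80 Af2KI Veh peaks, with 62 within 50 bp. The first such regions along the genome show the range. WT Veh alone was present on chromosome 1 at 38723291 to 38723528, where the nearest other ligand peak was 13.3 kb away. It was also present at 148640139 to 148640358, with the nearest other ligand peak at 294.0 kb, and at 176902065 to 176902312, with one at 1.79 kb. Af2KI Veh alone was present on chromosome 1 at 17087845 to 17088181, at 37776705 to 37776909 and at 157264294 to 157264660, with other ligand peaks 161.8 kb, 17.7 kb and 0.153 kb away in that order. The last of these was the widest region of all. Both vehicle lists were present on chromosome 2 at 50955657 to 50955860, at 71624913 to 71625146 and at 167423028 to 167423238. These sites were therefore called without ligand in both genotypes and with ligand only in WT Tam.

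The solitary tamoxifen regions stood farther from other ligand peaks than the solitary regions of the other lists did. Their median distance to the nearest peak of the other 3 ligand lists was 9168 bp (quartiles 2538 and 25838), against 5678 bp for WT ICI, 6540 bp for Af2KI ICI and 5529 bp for Af2KI Tam. Another ligand peak lay within 1 kb at 14.9% of the wild-type tamoxifen regions (14.1 to 15.8), compared with 28.1% for WT ICI (26.7 to 29.5), 19.9% for Af2KI ICI (19.1 to 20.8) and 23.8% for Af2KI Tam (22.5 to 25.3). Within 50 bp the shares were 1.10% (0.853 to 1.38), 3.81% (3.25 to 4.43), 1.17% (0.955 to 1.43) and 2.02% (1.58 to 2.53) in the same order. The rule sets only that no distance is an overlap. Each kind of region is measured against a different trio of lists, and the part of trio density in these distances was not tested.

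**Figure D3:**
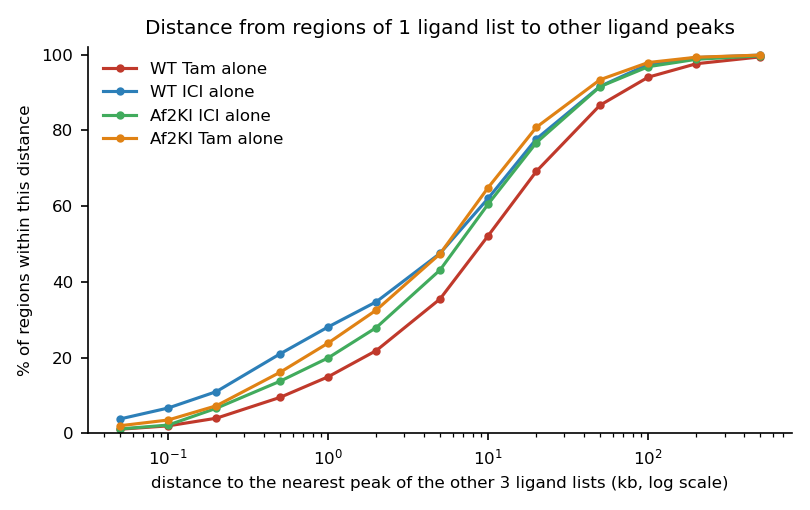
Cumulative percentage of regions with a peak of the other 3 ligand lists within a given distance (log axis, kb), for regions of each single ligand list. The WT Tam alone curve lies below the other curves from 0.1 kb to 100 kb, with 14.9% within 1 kb and 52.2% within 10 kb.

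By list, the nearest Af2KI ICI peak was a median of 12.9 kb away, the nearest Af2KI Tam peak 16.3 kb and the nearest WT ICI peak 17.5 kb, the order of the lists' lengths. A region held by all 4 ligand lists lay within 1 kb of 4.78% of the solitary tamoxifen regions (4.27 to 5.34) and within 100 kb of 75.8% (74.8 to 76.9). The most isolated regions were on chromosome X at 61412782 to 61412981, 2495 kb from any other ligand peak, and on chromosome 15 at 20892289 to 20892488, at 2101 kb. Others lay at 1869 kb on unplaced sequence (chrUn_random), at 1741 kb on chromosome 14 (112395112 to 112395311) and at 1295 kb on chromosome 12 (63309391 to 63309590). None of these 5 held a vehicle peak. The first regions along chromosome 1 lay in closer company: the region at 3351072 to 3351271 was 0.86 kb from other ligand peaks, that at 5013389 to 5013588 was 0.372 kb away and that at 7386729 to 7386928 was 1.40 kb away. The next along the chromosome, at 8914283 to 8914482 and at 9460761 to 9460960, were 225.5 kb and 57.1 kb away.

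The regions next to these held wild-type peaks more often, and mutant peaks less often, than merged regions as a whole. The nearest merged region held a WT Tam peak in 65.2% of cases (64.0 to 66.4), against 57.3% of all merged regions, and it was itself a solitary WT Tam region in 15.0% (14.1 to 15.9), against 9.67%. It held a WT ICI peak in 45.1% (43.9 to 46.4), against 40.7%. Mutant peaks were less frequent next door: the nearest region held an Af2KI ICI peak in 62.7% of cases (61.5 to 63.9), against 70.3% of all regions, and an Af2KI Tam peak in 49.3% (48.0 to 50.5), against 56.1%. Part of the higher WT Tam share and of the lower mutant shares is set by the rule. A solitary WT Tam neighbour, more frequent here, holds a WT Tam peak and no mutant peak. The vehicle lists, which entered the rule only through merging, also divided by genotype when set against all merged regions. A WT Veh peak was present in 7.18% of nearest regions (6.55 to 7.84), against 5.70% of all regions. For Af2KI Veh the shares were 5.64% (5.08 to 6.24) and 7.72%. Nearest regions and all regions both include those that hold vehicle peaks only. Of regions with a ligand peak, 5.21% held a WT Veh peak and 5.87% an Af2KI Veh peak. The latter lay within the interval for nearest regions. Solitary WT ICI regions had similar neighbours in several of these measures. Their nearest region held an Af2KI ICI peak in 63.1% (61.7 to 64.6), an Af2KI Tam peak in 50.9% (49.4 to 52.5) and a WT Veh peak in 7.28% (6.52 to 8.11), and it was itself a solitary WT ICI region in 8.85% (8.01 to 9.74), against 6.49% of all regions. They differed from the solitary tamoxifen regions in the share of nearest regions with a peak of their own list, 39.1% (37.6 to 40.6) against 40.7% of all regions, and with an Af2KI Veh peak, 10.2% (9.34 to 11.2). They also differed in WT Tam peaks, held by 55.0% of their nearest regions (53.5 to 56.5) against 57.3% of all regions. The part of local chromatin and of local read coverage in these shares was not tested.

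The spacing of solitary regions followed their number in each list. The nearest other region of the kind was a median of 78.9 kb away for WT Tam, against 120.6 kb for WT ICI, 52.6 kb for Af2KI ICI and 129.6 kb for Af2KI Tam. One lay within 10 kb at 12.5% of the solitary tamoxifen regions (11.7 to 13.3), against 9.82% for WT ICI (8.93 to 10.8), 17.0% for Af2KI ICI (16.2 to 17.8) and 8.01% for Af2KI Tam (7.14 to 8.95). The solitary tamoxifen regions fell into 4921 windows of 100 kb, of which 3853 held a single region, 833 held 2 and 235 held 3 or more. A window with at least 2 of the kind held 38.8% of them (37.6 to 40.0), against 28.4% for WT ICI (27.1 to 29.8), 47.5% for Af2KI ICI (46.4 to 48.5) and 28.0% for Af2KI Tam (26.5 to 29.5). In 13.8% of cases (13.0 to 14.7) the window had no peak of the other 3 ligand lists, against 8.35% for WT ICI (7.53 to 9.22), 8.67% for Af2KI ICI (8.08 to 9.29) and 7.005% for Af2KI Tam (6.19 to 7.89).

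A WT Tam region was more often solitary where WT Tam regions were sparse. The share that was solitary was 22.7% where the region was the only WT Tam region of its window (21.6 to 23.9), 18.1% in windows with 2 to 3 (17.4 to 18.8), 15.7% with 4 to 6 (15.1 to 16.3) and 13.4% with 7 or more (12.6 to 14.1). The same order was found in the other 3 ligand lists, where the share in the sparsest and densest windows was 19.1% and 10.5% for WT ICI, 22.0% and 16.1% for Af2KI ICI, and 11.4% and 8.22% for Af2KI Tam. Among WT Tam regions without a vehicle peak of their own, 20.5% were solitary in windows with no vehicle peak (19.9 to 21.1). With 1 vehicle peak in the window the share was 17.0% (16.2 to 17.9), and with 3 or more it was 15.4% (13.9 to 17.0). Between windows with no vehicle peak and those with 3 or more, the share also differed for Af2KI ICI, at 20.5% (20.01 to 21.1) and 18.1% (16.7 to 19.6). It was 18.6% (17.9 to 19.3) and 17.8% (15.9 to 19.8) for WT ICI, and 10.6% (10.2 to 11.1) and 9.50% (8.32 to 10.8) for Af2KI Tam, with overlapping intervals within each of these lists.

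**Figure D4:**
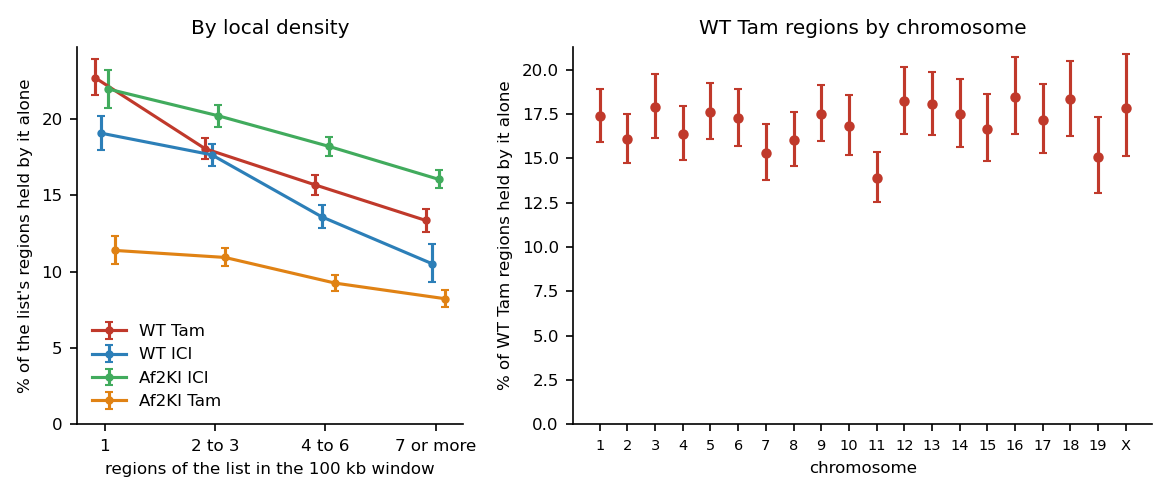
Percentage of a list's regions that no other ligand list held, by the number of the list's regions in the 100 kb window (left, all 4 ligand lists) and by chromosome (right, WT Tam); error bars are exact 95% binomial intervals. The WT Tam share runs from 22.7% in the sparsest to 13.4% in the densest windows and is lowest on chromosome 11, at 13.9%.

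By chromosome, the solitary share of WT Tam regions varied little. It was lowest on chromosome 11, at 13.9% (12.6 to 15.4), which also had the highest density of WT Tam regions, 19.9 per Mb. It was highest on chromosome 16, at 18.5% (16.4 to 20.7), with 13.0 WT Tam regions per Mb. The intervals of all other chromosomes except 11 overlapped that of chromosome 16. Density of solitary regions was highest on chromosome 9, at 3.19 per Mb, and lowest on the X chromosome, at 0.763 per Mb. The X chromosome held 127 of the regions, or 2.02% (1.68 to 2.39), compared with 1.90% of all WT Tam regions (1.77 to 2.05), 2.13% of all merged regions (2.02 to 2.25) and 3.11% of the solitary Af2KI Tam regions (2.57 to 3.73). Only 3 of the regions lay outside chromosomes 1 to 19 and X.

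The densest window of solitary tamoxifen regions was on chromosome 10 at 82500001 to 82600000, with 7 of them among 12 WT Tam peaks. The other lists had 4 peaks there for WT ICI, 6 for Af2KI ICI, 2 for Af2KI Tam and 1 for each vehicle list. The 7 regions were spread over 91.5 kb, from the one at 82506259 to 82506458 to the one at 82597740 to 82597939, on both sides of the WT Tam sites that the other lists shared. Just 1 region of the window had a peak in each of the 4 ligand lists.

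Of the 5 windows with 6 solitary regions, the first along the genome by chromosome number were these 4. On chromosome 2 at 154500001 to 154600000, WT Tam had 13 peaks, WT ICI 7, Af2KI ICI 6, Af2KI Tam 4, WT Veh 4 and Af2KI Veh 0. None of its 6 solitary regions coincided with a vehicle peak. On chromosome 4 at 114100001 to 114200000, the counts were 11 for WT Tam, 3 for WT ICI, 5 for Af2KI ICI and 4 for Af2KI Tam, with 1 for WT Veh. On chromosome 7 at 140900001 to 141000000, where neither vehicle list had a peak, no region had a peak in each of the 4 ligand lists. WT Tam had 13 peaks there, WT ICI and Af2KI ICI 4 each and Af2KI Tam 2, and 4 of the 6 solitary regions lay between 140969509 and 140978282. On chromosome 9 at 55200001 to 55300000, WT Tam had 14 peaks, WT ICI and Af2KI ICI 7 each, Af2KI Tam 5 and WT Veh 2. In all 5 windows, WT Tam regions shared with other lists lay between the solitary ones.

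**Figure D5:**
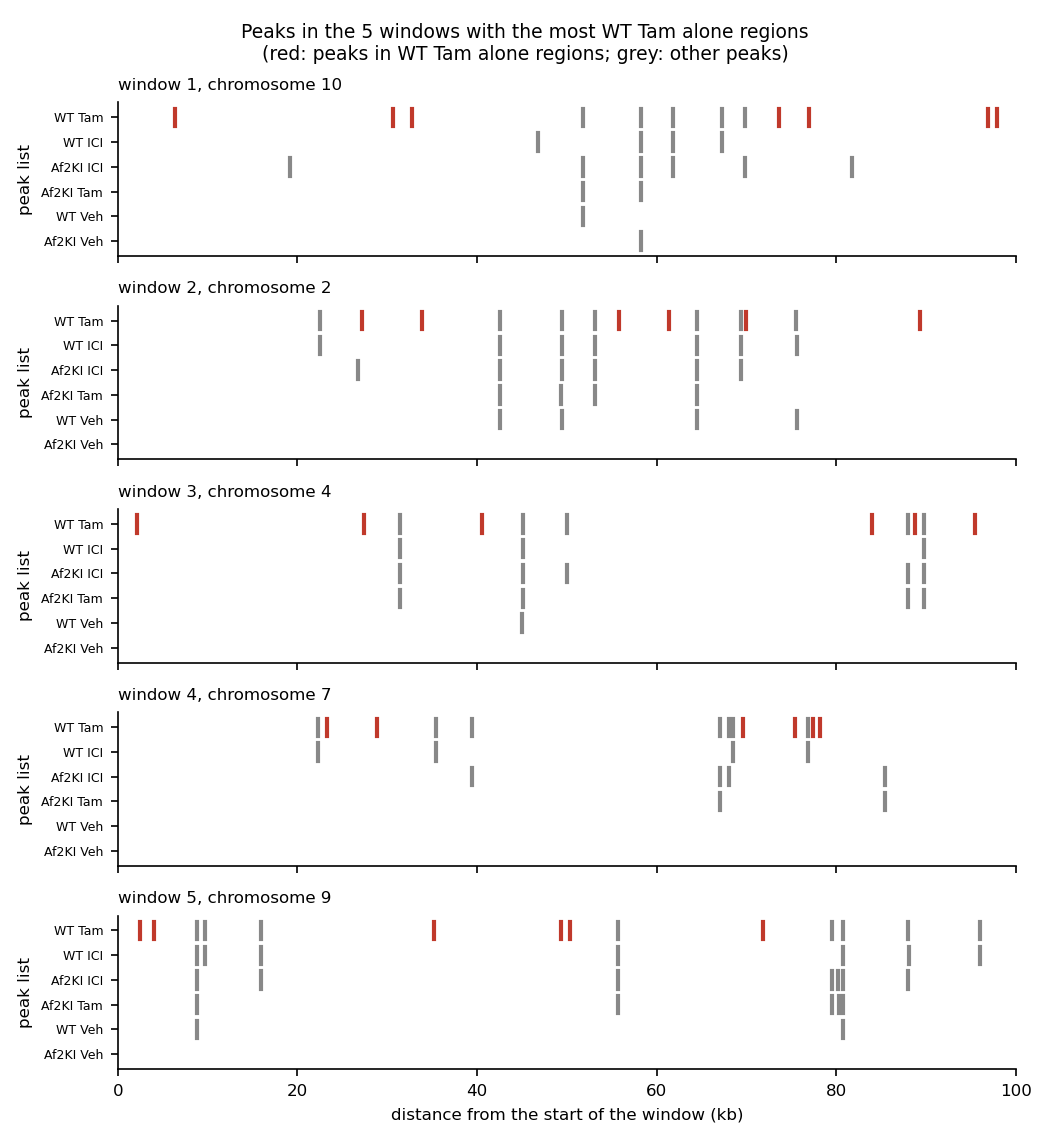
Positions of peaks in the 5 windows of 100 kb with the most regions held by WT Tam alone, as distance from the window's start (kb), with 1 row per peak list; red marks are peaks in those regions and grey marks are other peaks. The chromosome 10 window holds 7 red marks, the others 6 each, and grey WT Tam marks lie between them.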

How the data were processed

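ERα ChIP-seq was analysed in 6 libraries, 1 per group. The authors deposited 1 list of peak positions per library, and no score or other value comes with a peak. The build was mm9, and the tools were HOMER 4.10.3, Bowtie2 2.1.0, bedtools 2.24.0, Picard and SAMtools, per the submitters' processing notes. The sources used here do not state their roles, the peak threshold or any use of input, all of which set how many peaks a list holds.

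From the deposited positions, peaks of all lists were merged at an overlap of 1 bp with Python 3.11.15 (numpy 2.4.6, scipy 1.17.1, matplotlib 3.10.9). bedtools 2.31.1 gave the same 65146 regions, with 0 differing. On simulated lists, 0 of 16 combinations and 0 of 500 distances were wrong. Distances run from edge to edge. Each chromosome was divided into windows of 100 kb, and regions and peaks were placed by their midpoints. For densities, a chromosome's length was taken as the end of its last peak.

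The regions and measures were chosen with earlier results of these data known. Regions were named by rule: the 5 windows with the most members, the 5 members with the most WT Tam peaks (all had 1, so the first along chromosome 1), the first 3 of each vehicle class, and the 5 nearest to and farthest from another ligand peak. Ties went by chromosome number. Of the alternatives, those on promoters and response elements, like those results, needed an mm9 genome or annotation, which was not used here, so genes and sequences are not given.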

Additional observations from a re-analysis of the deposited data

Results flagged for a closer look

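The order of the ligands in the number of solitary regions was opposite in the genotypes. Tamoxifen had 1.49 times as many solitary regions as ICI in the wild type (6298 against 4228). In the mutant it had 0.423 times as many (3569 against 8430). The ratio lay on opposite sides of 1 with 1 library in each group, so the difference between the genotypes was not tested. Within each genotype the longer list had more solitary regions: 37327 peaks for WT Tam and 26482 for WT ICI, and 36538 for Af2KI Tam and 45837 for Af2KI ICI. Across genotypes this did not hold, since Af2KI Tam had fewer solitary regions than the shorter WT ICI list. The part of list length in the result was not tested.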

How the results depend on the processing

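The number of solitary WT Tam regions, their shares with each vehicle peak, with another ligand peak within 1 kb and with another region of the kind within 10 kb, and their share on the X chromosome were recomputed under the alternatives, which gave 42 values, of which 30 stayed within the main interval or within 1.5 times the main count. With the Af2KI ICI list left out of the rule, 9793 regions qualified. Another ligand peak lay within 1 kb at 18.3% of regions with merging at 100 bp of overlap. Merging up to 200 bp apart gave 11.3%, and a limit of 5 kb in place of 1 kb gave 35.5%. With a list left out of the rule, distances ran only to the lists that the rule kept. By that measure the share was 12.4% without WT ICI and 13.7% without Af2KI ICI. Another region of the kind lay within 10 kb at 17.5% without WT ICI and 17.4% without Af2KI ICI, and within 100 kb at 56.6%. A WT Veh peak was present in 2.30% without WT ICI and 1.67% without Af2KI Tam, and an Af2KI Veh peak in 2.26% without Af2KI Tam. By construction, leaving a list out of the rule admits regions shared with that list, and a longer distance can only raise a share. Merging at 100 bp of overlap admits regions that overlap another ligand peak by less, and these count as within 1 kb. Merging up to 200 bp apart removes regions with another ligand peak that close. Limiting the regions to those without a vehicle peak gives no vehicle share. The alternatives for promoters and response elements were not run, since no mm9 genome or annotation was used. No paired analysis was possible because each group has 1 library and no result comes from a test. Without read depths or peak heights, an unlisted site cannot be told from one below the threshold.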
